A study of Mus musculus with 9 samples.

Results

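Gene expression in the right ventricle was compared between male mice labelled Lrat-/- that ate a vitamin A deficient diet and wild-type mice that ate a sufficient one. Lecithin-retinol acyltransferase, the product of Lrat, joins retinol to a fatty acid so that it can be stored. The groups compared were Lrat-/- on the deficient diet, with no retinol palmitate added, and wild type on the sufficient diet, with 250000 U/kg of retinol palmitate, with 3 arrays each. They are 6 of the 9 arrays of the series. The other 3 arrays came from Lrat-/- mice on the sufficient diet and are given beside them, to show where a knockout that is fed vitamin A lies. All mice were male and were killed after 50 days on their diet. Genotype and diet both differ between the groups compared, so their effects cannot be told apart within these 6 arrays. The labels do not give the Lrat allele, the strain background or the age, and do not say that the 3 arrays of a group are separate animals. The p-values therefore reflect variation among these arrays, some of which may be technical. Of 35556 probe sets on the array, 22061 represented a gene each and were tested. Levels are log2 signals, in which a difference of 1 is a 2-fold change.

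Vitamin A enters cells as retinol, which is bound by small cellular retinoid carriers and either stored as retinyl ester by LRAT or oxidised. Retinol dehydrogenases make retinaldehyde, retinaldehyde dehydrogenases make retinoic acid, and CYP26 enzymes destroy it. Retinoic acid acts through nuclear receptors that pair with retinoid X receptors and bind repeated short sites in the promoters of target genes, several of which encode enzymes that limit retinoic acid itself. In the developing heart retinoic acid comes largely from the epicardium, the mesothelial layer on its surface.

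The median log2 signal of the 22061 genes was between 7.16 and 7.21 in each array. The arrays numbered 3 stood apart in every group on principal component 1, which held 28.4% of the variance (14.3 to 22.8, against -16.9 to -3.5 in the others), and no label says what they share. Background control probe sets averaged 5.37 to 5.71 in the 9 arrays, the lowest in wild-type array 2. The ventricular myocyte genes Myh6, Tnni3 and Myl2 were between 13.54 and 14.02 in all 9 arrays, and the atrial gene Sln was at most 5.54, at the level of background. Myl7, another atrial gene, was above background in the arrays compared, at 6.60 to 8.05. Of 10 atrial markers, 7 were above background in all 9 arrays. Adipoq, a marker of fat, was not above background in the arrays compared. Plin1, another, was above it in all of them, at 6.69 to 7.01. Of 14 adipocyte markers, 12 were above background in all 9 arrays.

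The targeted gene itself was looked at before the others, as a test of the labels. Its log2 signal was 7.58, 7.69 and 7.81 in deficient arrays labelled Lrat-/-, 7.88, 7.64 and 8.09 in sufficient arrays labelled Lrat-/- and 6.35, 6.24 and 6.43 in wild-type arrays. The signal was therefore higher, not lower, in every array labelled Lrat-/-, with a difference of 1.35 between deficient and wild-type arrays (SE 0.12, limma adjusted p = 0.00269). An exact permutation test gave a two-sided p = 0.1, the smallest that 20 splits of 3 against 3 arrays allow. Where this probe set lies relative to the deleted part of the gene is not known here, and a probe set outside it checks nothing. The groups below are called the deficient arrays, the sufficient Lrat-/- labelled arrays and the wild-type arrays, and every direction rests on those labels.

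Limma called 15 genes between deficient and wild-type arrays at an adjusted p under 0.05, which is 0.068% of the genes tested: 9 were higher (0.0408%) and 6 were lower (0.0272%) in the deficient arrays. The 6 lower genes included enzymes of lysophospholipid, histidine and fatty acid metabolism, a macrophage cytokine gene and a junction protein. The 9 higher genes included a receptor for R-spondins, an inhibitor of protein kinase A and a regulator of glycolysis. Deficient and wild-type arrays did not overlap in any of the 15, against 8.15% of all genes. The 15 were selected on these same arrays, so this lack of overlap is no separate support. Before adjustment 1344 genes (6.09%) had a p under 0.05, where 1103 would be expected with no change: 605 higher (2.74%) and 739 lower (3.35%). The median difference over all genes was -0.01, with 45.7% of genes higher and 54.3% lower, the background for the counts of list members given below.

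**Figure D1:**
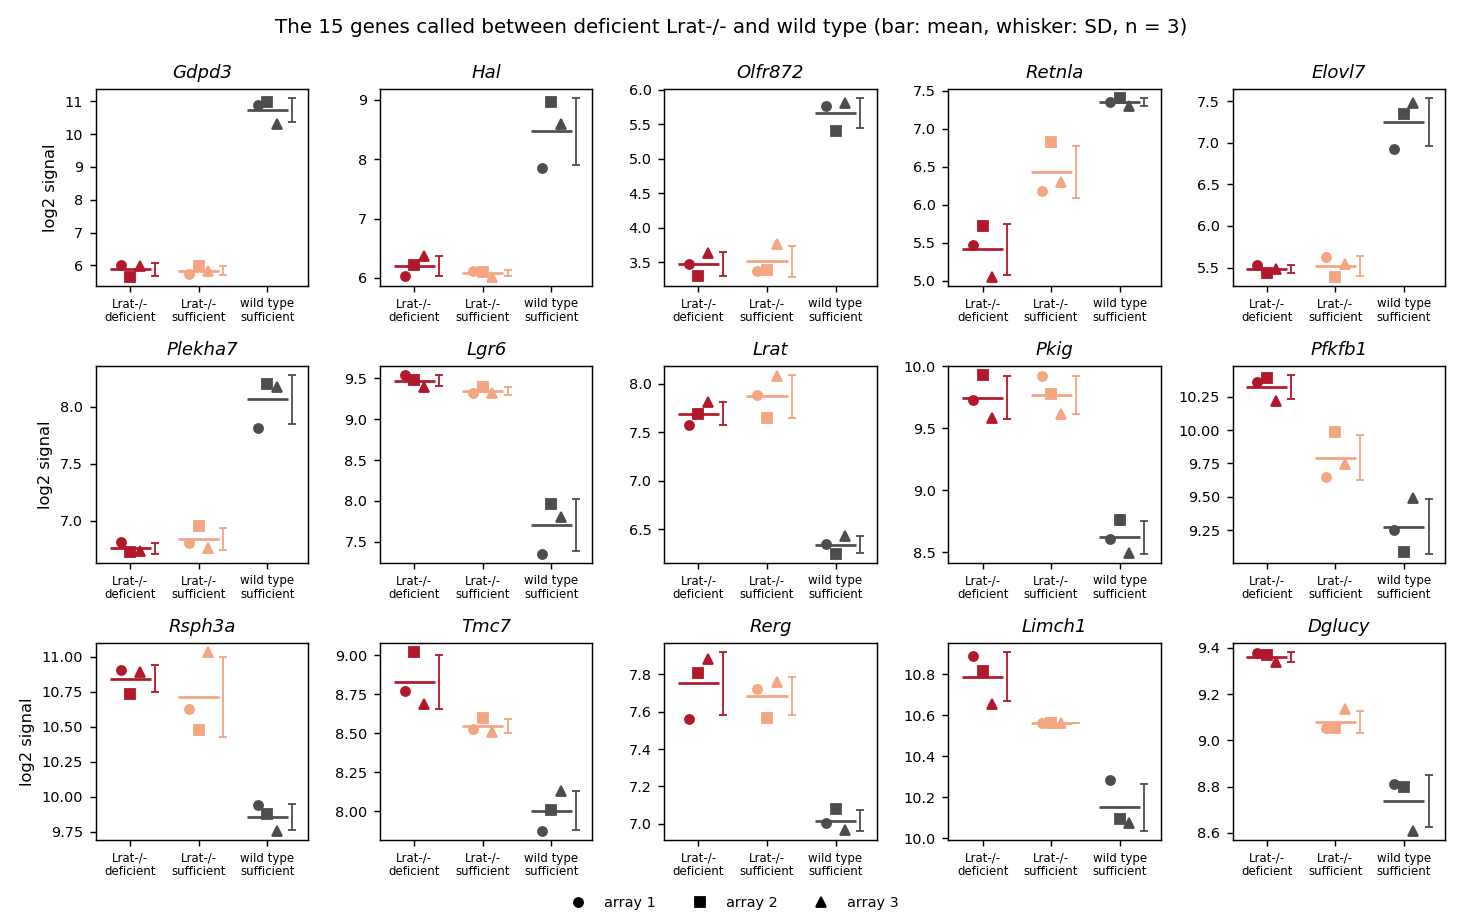
Log2 signal (vertical axes) of the 15 called genes in each of the 9 arrays, by group, with the mean (bar) and SD (whisker, n = 3), and array number by marker shape. In Gdpd3 the deficient arrays average 5.88 and the wild-type arrays 10.73, while in Retnla and Pfkfb1 the sufficient Lrat-/- labelled arrays lie between the other groups.

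The gene with the largest difference was Gdpd3, a lysophospholipase D of the glycerophosphodiester phosphodiesterase family. Its log2 signal was 6.004, 5.66 and 5.98 in deficient arrays, 5.73, 5.98 and 5.82 in sufficient Lrat-/- labelled arrays and 10.90, 10.99 and 10.30 in wild-type arrays. All 6 arrays labelled Lrat-/- thus sat near background, with 2 of the 3 deficient arrays just above it, and all wild-type arrays far above it. Gdpd3 was at least 28.7-fold lower in deficient than in wild-type arrays with the array below background set to it (log2 difference as measured -4.85, SE 0.18, adjusted p = 6.56e-06). Hal, histidine ammonia-lyase, the first enzyme of histidine breakdown, was at 6.03, 6.22 and 6.36 in deficient arrays, 6.12, 6.09 and 6.02 in sufficient Lrat-/- labelled arrays and 7.86, 8.96 and 8.59 in wild-type arrays, 4.81-fold lower in deficient arrays (adjusted p = 0.00846). The wild-type arrays differed among themselves by more than 1 log2 unit for Hal, but none came near the other groups.

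Elovl7, an elongase of long-chain fatty acids, was at 5.53, 5.44 and 5.48 in deficient arrays, 5.62, 5.39 and 5.54 in sufficient Lrat-/- labelled arrays and 6.92, 7.35 and 7.48 in wild-type arrays. None of the 6 arrays labelled Lrat-/- was above background for Elovl7, so only a bound can be given: it was at least 2.95-fold lower in deficient arrays (adjusted p = 0.00159). Olfr872, an olfactory receptor gene, was also below background in every array labelled Lrat-/-. It measured 3.48, 3.31 and 3.64 in deficient arrays and 5.77, 5.41 and 5.81 in wild-type arrays (adjusted p = 0.000860), and no fold is given because the wild-type signal lay close to background. Plekha7, a protein of the adherens junction, was at 6.81, 6.72 and 6.73 in deficient arrays, 6.80, 6.95 and 6.76 in sufficient Lrat-/- labelled arrays and 7.82, 8.20 and 8.18 in wild-type arrays, 2.48-fold lower in deficient arrays (adjusted p = 0.00228).

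Retnla, which encodes resistin-like alpha, a secreted protein of alternatively activated macrophages, followed another pattern. Its log2 signal was 5.48, 5.72 and 5.06 in deficient arrays, 6.18, 6.82 and 6.30 in sufficient Lrat-/- labelled arrays and 7.35, 7.41 and 7.31 in wild-type arrays. The 3 groups did not overlap, and the sufficient Lrat-/- labelled arrays lay midway in the signals as measured. Only 1 of the 3 deficient arrays was above background, so the size is a bound: Retnla was at least 3.14-fold lower in deficient than in wild-type arrays (adjusted p = 0.00749), with signals below background set to it. Of 28 macrophage markers, Retnla among them, 24 were lower in deficient arrays, with a median difference of -0.18. Without wild-type array 2, 19 were lower and 9 higher, with a median of -0.10. Their summed linear signal was 8618 to 8920 in deficient and 9174 to 11970 in wild-type arrays, the highest in wild-type array 2. The macrophage genes Csf1r and Adgre1 differed by -0.18 and -0.22 and were not called, and the part of macrophage number in the Retnla difference was not tested. In bulk tissue, fewer cells of a type and less RNA per cell cannot be told apart.

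Among the genes that rose, Lgr6, a receptor for the R-spondins that strengthen Wnt signalling, had the largest difference. It was at 9.53, 9.48 and 9.40 in deficient arrays, 9.32, 9.39 and 9.32 in sufficient Lrat-/- labelled arrays and 7.36, 7.96 and 7.80 in wild-type arrays. The groups were in order with no overlap, but the sufficient arrays labelled Lrat-/- lay close to the deficient ones. Lgr6 was 3.39-fold higher in deficient than in wild-type arrays (difference 1.76, SE 0.14, adjusted p = 0.00159). Pkig, an inhibitor of the catalytic subunit of protein kinase A, was at 9.73, 9.93 and 9.59 in deficient arrays, 9.92, 9.78 and 9.61 in sufficient Lrat-/- labelled arrays and 8.60, 8.76 and 8.50 in wild-type arrays, 2.18-fold higher in deficient arrays (adjusted p = 0.00881). For Pkig the 2 groups labelled Lrat-/- overlapped fully.

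Pfkfb1, the bifunctional enzyme that makes and removes the main allosteric activator of phosphofructokinase, showed 3 separate levels. It was at 10.36, 10.39 and 10.22 in deficient arrays, 9.65, 9.98 and 9.75 in sufficient Lrat-/- labelled arrays and 9.25, 9.09 and 9.49 in wild-type arrays. Pfkfb1 was 2.06-fold higher in deficient than in wild-type arrays (difference 1.04, SE 0.12, adjusted p = 0.0204). Of the 36 genes of glucose uptake and glycolysis, Pfkfb1 included, 19 were higher and 17 lower, and apart from Pfkfb1 none was called. Dglucy, the mitochondrial D-glutamate cyclase, was at 9.38, 9.37 and 9.34 in deficient arrays, 9.05, 9.05 and 9.14 in sufficient Lrat-/- labelled arrays and 8.81, 8.80 and 8.61 in wild-type arrays, a rise of 0.62 (adjusted p = 0.0264). Again no array of one group reached the level of another.

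The remaining called genes were Tmc7, Limch1, Rerg and Rsph3a, all higher in deficient arrays. Tmc7, a member of the transmembrane channel-like family, was at 8.77, 9.02 and 8.69 in deficient arrays, 8.53, 8.59 and 8.51 in sufficient Lrat-/- labelled arrays and 7.87, 8.01 and 8.13 in wild-type arrays (difference 0.82, adjusted p = 0.0289). Limch1, which acts on non-muscle myosin, was at 10.89, 10.82 and 10.66 in deficient arrays, 10.56, 10.56 and 10.56 in sufficient Lrat-/- labelled arrays and 10.28, 10.09 and 10.08 in wild-type arrays (difference 0.64, adjusted p = 0.0495). Both were graded, with 3 groups that did not overlap. Rerg, a Ras-like small GTPase, was at 7.56, 7.81 and 7.88 in deficient and 7.01, 7.08 and 6.97 in wild-type arrays (difference 0.73, adjusted p = 0.0455), but not when array number was added as a block (adjusted p = 0.0588). Rsph3a, a radial spoke protein of cilia, was at 10.91, 10.73 and 10.89 in deficient and 9.94, 9.87 and 9.76 in wild-type arrays (difference 0.99, adjusted p = 0.0495). The authors' deposited table names the same probe set Rsph3b, a near-identical copy, so which copy was measured is uncertain. Of 26 cilium and axoneme genes Rsph3a was the only 1 with a p under 0.05 in limma, and 18 of the 26 were lower.

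The 15 calls did not rest equally on all arrays. Gdpd3, Olfr872, Elovl7, Plekha7, Lrat and Lgr6 were called whichever of the 6 arrays was left out. The other 9 lost the call, with the same sign, in at least 1 such fit: 8 lost it without deficient array 1, 8 without deficient array 2, 7 without deficient array 3, 4 without wild-type array 1, 6 without wild-type array 2 and 3 without wild-type array 3. Hal, for example, had an adjusted p of up to 0.0822 and Retnla of up to 0.0537, and Rsph3a was called in none of the 6 fits. Without the 3 arrays numbered 3, Gdpd3 was the only 1 of the 15 called (adjusted p = 0.00771), and all 15 had the same sign and an unadjusted p under 0.05 by limma.

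The sufficient Lrat-/- labelled arrays divide the 15 genes. Position is given as the share of the distance covered from the wild-type mean to the deficient mean, with 0% at wild type and 100% at the deficient arrays. The sufficient mean lay between the other 2 in 11 of the 15 called genes, in 1010 of the 1344 genes with a p under 0.05 (75.1%) and in 36.6% of all genes. The 3 groups were in order with no overlap in 6 of the 15: Retnla at 47.5%, Pfkfb1 at 49.5%, Dglucy at 55.1%, Limch1 at 64.9%, Tmc7 at 65.7% and Lgr6 at 92.9%. Over all genes 46 (0.209%) were ordered in this way, 22 upward (0.0997%) and 24 downward (0.109%). Since a gene chosen for a large difference between the outer groups has more room between them, these shares are descriptions. The called genes with the sufficient mean between, but without the 3 groups in order, lay close to the deficient mean. They were Rsph3a at 86.7%, Rerg at 90.7%, Plekha7 at 93.8%, Elovl7 at 98.0% and Olfr872 at 98.2%. At the other end, the sufficient mean lay at or beyond the deficient mean for Gdpd3 (101%), Pkig (102%), Hal (106%) and Lrat (113%). The deficient arrays of Retnla, Gdpd3, Elovl7 and Olfr872 were near or below background, so the positions of these genes are approximate. Between the 2 groups labelled Lrat-/-, which differ in diet alone by their labels, limma called none of the 22061 genes and 290 (1.31%) had a p under 0.05. That is fewer than the 1103 expected with no change, so the expected count is only a rough guide in this fit. The lack of calls does not show that diet made no difference.

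Several genes were just short of the threshold. Of those that did not overlap, the next by p among lower genes included Lrrc4b, Dhrs3, Ccl6, Pdpn, Plet1, Ccl21a, Fbxo44, Tmem37 and Cd209f, with adjusted p between 0.0750 and 0.154. With 1 array left out, Lrrc4b and Cd209f were called without wild-type array 1, Pdpn and Fbxo44 without wild-type array 3 and Ccl6 without deficient array 3. The chemokine gene Ccl6 was at 6.67, 6.69 and 7.11 in deficient arrays, 7.39, 7.45 and 7.40 in sufficient Lrat-/- labelled arrays and 7.69, 7.998 and 7.59 in wild-type arrays (difference -0.93, adjusted p = 0.0754). Its 3 groups were in order, as in Retnla. Ccl21a, the lymphatic chemokine that attracts cells bearing CCR7, had a difference of -0.56, and Pdpn, a membrane glycoprotein of lymphatic endothelium and mesothelium, one of -0.61. Lyve1, another gene of lymphatic endothelium and of resident macrophages, was at 8.66, 8.73 and 8.88 in deficient arrays, 9.20, 9.13 and 9.61 in sufficient Lrat-/- labelled arrays and 9.38, 9.15 and 9.48 in wild-type arrays (difference -0.58, adjusted p = 0.359).

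Among higher genes the next by p were Lyrm7, Cdc14b, Zfp943, Pus7, Chd6, Osbpl3, Zfp52, Ppm1k, Adam22 and Mansc4, with adjusted p between 0.143 and 0.224. With 1 array left out, Zfp943 was called without wild-type array 1, Chd6 without wild-type array 3 and Osbpl3 without deficient array 3. Lyrm7, an assembly factor of respiratory complex III, was at 7.79, 7.85 and 8.04 in deficient arrays, 7.60, 7.61 and 7.65 in sufficient Lrat-/- labelled arrays and 7.48, 7.33 and 7.26 in wild-type arrays (difference 0.54). Cdc14b, a protein phosphatase, was at 9.39, 9.17 and 8.89 in deficient arrays, 9.53, 9.22 and 9.22 in sufficient Lrat-/- labelled arrays and 8.39, 8.04 and 8.34 in wild-type arrays (difference 0.90, adjusted p = 0.145, and 0.0447 with array number as a block). The zinc finger gene Zfp943 had a difference of 1.27 and an adjusted p of 0.173, or 0.0479 with that block. Ppm1k, the phosphatase that activates the breakdown of branched-chain amino acids, differed by 0.54. For Lyrm7 the sufficient Lrat-/- labelled arrays lay at 48.5% of the distance and for Cdc14b at 119%, so these 2 genes stand for the graded and the ungraded pattern.

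The graded genes with the largest differences that were not called were led downward by Upk3b, a uroplakin of the mesothelium. Upk3b was at 7.89, 6.995 and 7.36 in deficient arrays, 8.04, 8.04 and 8.11 in sufficient Lrat-/- labelled arrays and 9.59, 8.15 and 8.58 in wild-type arrays (difference -1.36, adjusted p = 0.385). The sufficient arrays were tightly placed between 2 spread groups. The next were Ccl6, Pi16, a marker of adventitial fibroblasts, Dhrs3, Fstl4, Bst1, Adgrd1, Islr and Sprr1a, with differences between -0.93 and -0.38. Pi16 was at 7.95, 7.80 and 7.53 in deficient arrays, 8.02, 8.02 and 8.04 in sufficient Lrat-/- labelled arrays and 8.65, 8.97 and 8.25 in wild-type arrays (difference -0.86, adjusted p = 0.239), and was called without wild-type array 3. Upward they were Dnajc19, a cochaperone of the mitochondrial inner membrane, Lyrm7, the interferon-inducible Ifi204, Arid4b and Cdnf, with differences between 0.39 and 0.61.

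Genes of retinoid handling were then described by role, none of them called except Lrat itself. Carriers and storage genes showed few differences: of 22 measured, 14 were higher and 8 lower, and Lrat and Rbp7 had a p under 0.05. Rbp7, a cellular retinol-binding protein of endothelium and fat, was at 8.03, 8.48 and 8.88 in deficient arrays, 7.79, 8.14 and 8.10 in sufficient Lrat-/- labelled arrays and 7.17, 7.02 and 7.84 in wild-type arrays. The deficient arrays were all above the wild-type ones, and the difference was 1.12 (SE 0.25, adjusted p = 0.315). The retinol transporter Stra6 differed by -0.11 and Dgat1, which can also esterify retinol, by 0.07, each with overlapping groups.

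Among enzymes that limit retinoic acid, Dhrs3 and Cyp26b1 were lower in every deficient than in every wild-type array, short of the threshold. Dhrs3, which reduces retinaldehyde back to retinol and is known as a target of retinoic acid, was at 10.18, 9.99 and 10.16 in deficient arrays, 10.43, 10.43 and 10.50 in sufficient Lrat-/- labelled arrays and 10.65, 10.89 and 10.63 in wild-type arrays. Its 3 groups did not overlap, with the sufficient arrays at 44.0% of the distance, and it was 1.53-fold lower in deficient than in wild-type arrays (difference -0.61, SE 0.09, adjusted p = 0.0754). For Dhrs3, sufficient arrays 1 and 2 had equal values to 3 decimals, which narrows that group. Cyp26b1, a hydroxylase that destroys retinoic acid, was at 7.11, 7.06 and 7.08 in deficient arrays, 7.28, 7.28 and 7.36 in sufficient Lrat-/- labelled arrays and 7.48, 7.35 and 7.55 in wild-type arrays (difference -0.38, adjusted p = 0.224). Deficient and wild-type arrays did not overlap. Its relative Cyp26a1 was near background, at 5.74, 5.70 and 5.28 in deficient and 5.68, 5.77 and 5.70 in wild-type arrays, and Cyp26c1 differed by -0.14. Cyp2s1, a cytochrome P450 that can also metabolise retinoic acid, differed by -0.42, while Dhrs7, a short-chain dehydrogenase, differed by 0.53. Aldh1a2, the main retinoic acid synthesising enzyme of the epicardium, was at 7.02, 7.28 and 6.59 in deficient arrays and 7.60, 7.47 and 7.08 in wild-type arrays, with overlap (difference -0.42, adjusted p = 0.817). Its list held 25 genes of synthesis and breakdown, of which 17 were lower and 8 higher, with 5 lower and 2 higher at a p under 0.05 and a median of -0.04 (-0.09 without wild-type array 1).

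Receptors showed little. Rara, Rxra and Rxrg differed by 0.01, -0.09 and -0.11, and Rarb, a classical target of retinoic acid as well as its receptor, was at 9.58, 9.58 and 9.27 in deficient arrays, 9.93, 9.58 and 9.58 in sufficient Lrat-/- labelled arrays and 9.81, 9.53 and 9.37 in wild-type arrays (difference -0.09, SE 0.14). The groups overlapped throughout. Of 23 receptors and cofactors, 15 were lower and none was called. Of 33 genes known to respond to retinoic acid, 25 were lower in deficient arrays and 8 higher, with a median of -0.08 against -0.01 over all genes, and 4 had a p under 0.05, all lower: Dhrs3, Cyp26b1, Btg2 and Rarres2. The median was -0.05 without deficient array 2 and -0.03 without wild-type array 3. The share of 4 in 33 stands beside 3.35% over all genes, and Dhrs3 and Cyp26b1 are also members of the synthesis and breakdown list.

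**Figure D2:**
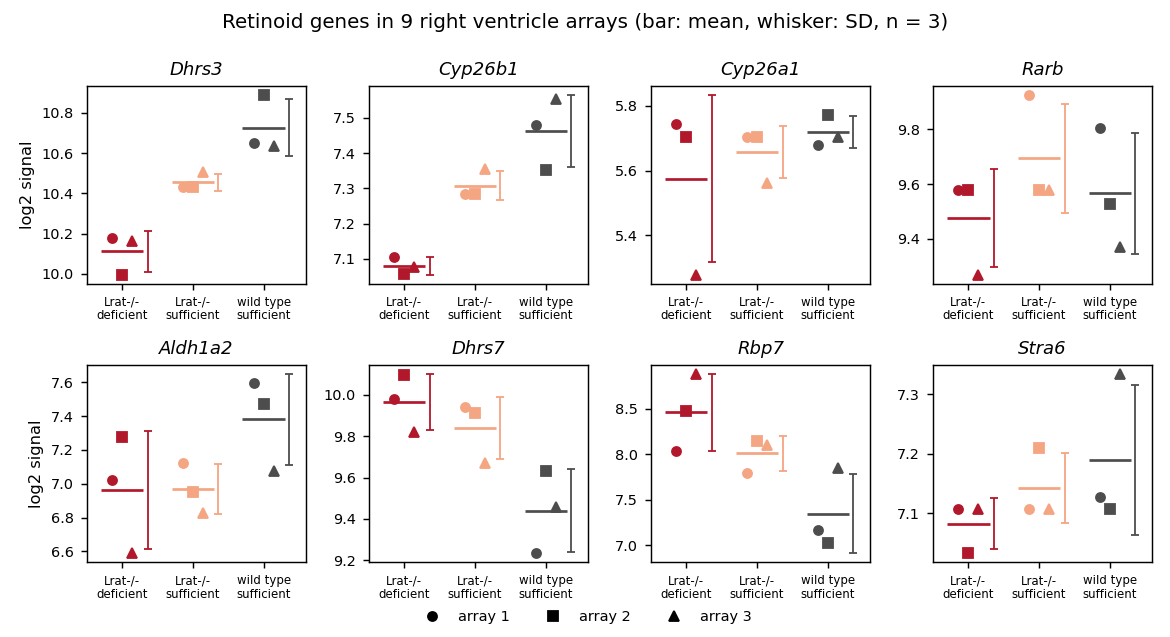
Log2 signal (vertical axes) of 8 retinoid genes in each of the 9 arrays by group, with the mean (bar) and SD (whisker, n = 3). Dhrs3 falls into 3 separate levels, with a deficient mean of 10.11 and a wild-type mean of 10.72, while the groups overlap in Rarb, Cyp26a1 and Stra6.

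The promoters of Rarb, Cyp26a1, Dhrs3 and Retnla are shown because the first 2 carry the repeat that retinoic acid receptors bind and the others belong to graded genes. They are RefSeq sequences of the GRCm38.p6 build, 250 bases before to 50 after a gene's start, read 5′ to 3′ on the gene's strand. Capitals mark the hexamer AGGTCA, the variant AGTTCA, the variant GGGTCA and the variant GGTTCA, searched on both strands, and none overlapped another in these windows. A direct repeat with a spacer of 5 bases is 2 such hexamers in the same direction.
Rarb, chr14:16575427-16575726, minus strand: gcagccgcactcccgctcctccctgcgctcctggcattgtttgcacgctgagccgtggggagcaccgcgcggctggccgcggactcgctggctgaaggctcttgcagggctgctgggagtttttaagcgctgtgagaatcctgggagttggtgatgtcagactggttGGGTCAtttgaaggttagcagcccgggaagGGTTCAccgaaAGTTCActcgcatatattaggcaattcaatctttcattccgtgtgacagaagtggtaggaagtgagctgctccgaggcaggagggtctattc
Cyp26a1, chr19:37697558-37697857, plus strand: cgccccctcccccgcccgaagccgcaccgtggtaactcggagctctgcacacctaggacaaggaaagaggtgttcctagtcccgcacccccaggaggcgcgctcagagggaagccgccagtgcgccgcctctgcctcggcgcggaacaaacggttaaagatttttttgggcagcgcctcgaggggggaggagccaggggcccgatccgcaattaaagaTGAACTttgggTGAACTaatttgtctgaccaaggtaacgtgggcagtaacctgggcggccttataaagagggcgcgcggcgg
Dhrs3, chr4:144892577-144892876, plus strand, the first of 3 starts: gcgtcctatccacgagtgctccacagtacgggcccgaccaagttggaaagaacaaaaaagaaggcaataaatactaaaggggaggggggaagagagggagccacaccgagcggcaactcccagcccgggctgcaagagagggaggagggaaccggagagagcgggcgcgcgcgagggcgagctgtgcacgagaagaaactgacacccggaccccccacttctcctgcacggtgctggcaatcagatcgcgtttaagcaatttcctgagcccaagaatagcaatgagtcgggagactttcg
Retnla, chr16:48842359-48842658, plus strand: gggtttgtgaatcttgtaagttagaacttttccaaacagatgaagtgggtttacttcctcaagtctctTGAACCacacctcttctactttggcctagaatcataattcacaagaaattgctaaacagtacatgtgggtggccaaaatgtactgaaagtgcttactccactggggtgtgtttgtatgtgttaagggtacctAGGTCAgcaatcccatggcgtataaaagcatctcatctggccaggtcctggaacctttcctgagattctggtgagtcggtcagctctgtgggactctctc

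The Rarb and Cyp26a1 windows hold a direct repeat with a spacer of 5 bases, which occurs in 0.115% of the 27025 genes with a promoter sequence. Neither gene differed beyond its spread between the arrays. In Dhrs3 and Cyp26b1, the retinoid genes with the lowest p after Lrat, none of these letters was found in the windows examined. Retnla has 2 single hexamers on opposite strands. Single hexamers are common: 46.9% of all genes with a promoter sequence held one, 4 of 13 called genes (Limch1, Olfr872, Pfkfb1 and Retnla) and 10 of the 17 graded genes that had a sequence. A match is a description of the letters in this window only.

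Genes of cholesterol and fatty acid synthesis were mostly lower and genes of fatty acid uptake and oxidation mostly higher, none of them called. Of 28 genes of cholesterol and fatty acid synthesis, 23 were lower in deficient arrays (median -0.10, or -0.06 without wild-type array 1, and 6 with a p under 0.05). Scd1, the desaturase that makes monounsaturated fatty acids, was at 8.77, 8.75 and 8.73 in deficient arrays, 8.86, 8.66 and 8.84 in sufficient Lrat-/- labelled arrays and 9.71, 9.11 and 9.29 in wild-type arrays (difference -0.62, adjusted p = 0.314). Srebf1, the transcription factor of lipid synthesis, differed by -0.28, and the fatty acid desaturases Fads1 and Fads2 by -0.27 and -0.33. Mboat2, a lysophospholipid acyltransferase, was at 8.03, 8.05 and 7.53 in deficient arrays, 7.56, 7.67 and 7.29 in sufficient Lrat-/- labelled arrays and 9.41, 9.37 and 8.54 in wild-type arrays (difference -1.23, adjusted p = 0.224). It was called with array number as a block (adjusted p = 0.00728), without the arrays numbered 3 (adjusted p = 0.0278) and without wild-type array 3 alone. The wild-type arrays 1 and 2 lay well above the rest, and wild-type array 3 between. Of 38 genes of fatty acid uptake and oxidation, 28 were higher (median 0.08, or 0.05 without wild-type array 1, and 4 with a p under 0.05), among them Ppara, the nuclear receptor that drives fatty acid oxidation (difference 0.24), and Ppargc1a, its coactivator (0.23). Mccc1, of leucine breakdown, differed by 0.86 (adjusted p = 0.479).

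Genes of cardiac stress and of the fetal programme were low in the deficient arrays, although none was called. Nppa, which encodes atrial natriuretic peptide, was at 9.84, 9.88 and 9.65 in deficient arrays, 11.49, 11.58 and 10.04 in sufficient Lrat-/- labelled arrays and 11.22, 11.52 and 10.65 in wild-type arrays. The deficient arrays were low and alike, the wild-type arrays higher, and the sufficient Lrat-/- labelled arrays were split, with arrays 1 and 2 at the wild-type level and array 3 near the deficient one. Nppa was 2.53-fold lower in deficient than in wild-type arrays (difference -1.34, SE 0.38, adjusted p = 0.489). Nppb, of brain natriuretic peptide, was at 7.18, 7.77 and 8.34 in deficient arrays, 8.47, 8.87 and 7.73 in sufficient Lrat-/- labelled arrays and 9.26, 10.01 and 8.80 in wild-type arrays, 3.02-fold lower in deficient arrays (adjusted p = 0.383). Acta1, skeletal actin, which the stressed ventricle re-expresses, was at 10.95, 10.76 and 11.05 in deficient arrays, 12.08, 12.06 and 10.87 in sufficient Lrat-/- labelled arrays and 12.29, 12.42 and 11.67 in wild-type arrays (difference -1.20, adjusted p = 0.407). Its pattern over the 9 arrays resembled that of Nppa, with sufficient array 3 again near the deficient level.

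Ccn2, connective tissue growth factor, was at 10.46, 10.51 and 10.36 in deficient arrays, 10.44, 10.80 and 10.40 in sufficient Lrat-/- labelled arrays and 10.999, 11.50 and 10.90 in wild-type arrays (difference -0.69, adjusted p = 0.349). Of 19 stress genes measured, 14 were lower (median -0.17), 7 lower and 1 higher had a p under 0.05, and 8 did not overlap between deficient and wild-type arrays, against 8.15% of all genes. Without wild-type array 3 the median was -0.11. Nppa is also an atrial gene. Of 10 atrial markers, 6 were lower, with a median of -0.06 (-0.10 without wild-type array 1 and -0.02 without wild-type array 2), and their summed linear signal was 6511 to 7018 in deficient and 8099 to 9398 in wild-type arrays. Nppa made up much of that gap: the other 9 markers summed to 5709 to 6104 in deficient and 6206 to 6495 in wild-type arrays, with 5 lower and 4 higher, while the atrial light chain Myl7 was at 6.68, 6.60 and 8.05 in deficient and 6.74, 6.63 and 6.69 in wild-type arrays. The part of atrial tissue in the Nppa difference was not tested. Cardiomyocyte markers lay in both directions: of 12, 7 were higher and 5 lower, with a median difference of 0.01 but a mean of -0.21. By limma 1 higher and 2 lower had a p under 0.05. Their mean deviations were -0.13, -0.07 and -0.11 in deficient arrays and 0.06, 0.25 and -0.001 in wild-type arrays. In sufficient Lrat-/- labelled arrays they were 0.02, 0.15 and -0.17. The ventricular myocyte gene Myh6 differed by 0.02.

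Ion handling genes lay in both directions. Of 32 potassium and sodium channel genes, 7 higher and 3 lower had a p under 0.05, none called. Kcnj14, an inward rectifier, was at 6.31, 6.19 and 6.11 in deficient arrays, 6.16, 5.88 and 5.80 in sufficient Lrat-/- labelled arrays and 6.67, 6.79 and 6.89 in wild-type arrays (difference -0.58, adjusted p = 0.224). Kcne1, the accessory subunit of the slow delayed rectifier, differed by -0.78 and its pore subunit Kcnq1 by 0.33, so the 2 subunits lay in opposite directions, neither called (adjusted p = 0.348 and 0.407). Kcnj3, a subunit of the acetylcholine-activated potassium channel, differed by 0.39. Of 30 calcium handling genes, 21 were higher and 7 higher and 1 lower had a p under 0.05. Casq1, a calcium-binding protein of the sarcoplasmic reticulum, was at 9.03, 9.13 and 8.95 in deficient arrays, 9.64, 9.54 and 8.99 in sufficient Lrat-/- labelled arrays and 8.16, 8.63 and 8.24 in wild-type arrays (difference 0.69, adjusted p = 0.407).

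**Figure D3:**
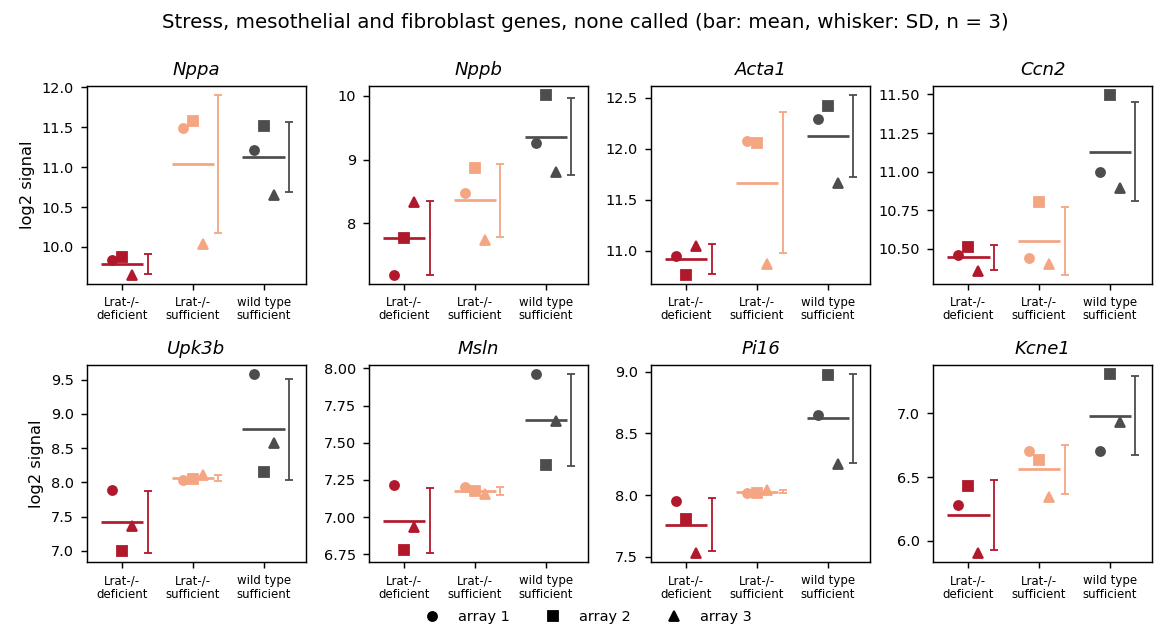
Log2 signal (vertical axes) of 8 genes of cardiac stress, mesothelium, fibroblasts and ion channels in each of the 9 arrays by group, with the mean (bar) and SD (whisker, n = 3). None was called, and in Nppa and Acta1 the sufficient Lrat-/- labelled arrays split, with array 3 near the deficient arrays.

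Genes of the heart's surface layer were low in deficient arrays. Of 23 markers of mesothelium and epicardium, 22 were lower (median -0.36) and 14 had a p under 0.05, against 3.35% of all genes. The sufficient mean lay between the other groups in 20, against 36.6% of all genes and 75.1% of genes with a p under 0.05. None was called. Besides Upk3b, mesothelin (Msln) was at 7.22, 6.78 and 6.93 in deficient arrays, 7.20, 7.17 and 7.15 in sufficient Lrat-/- labelled arrays and 7.96, 7.35 and 7.65 in wild-type arrays (difference -0.68, adjusted p = 0.338), and Upk1b differed by -0.99. The mean deviation of the 23 genes from their average was -0.08, -0.27 and -0.20 in deficient arrays, -0.05, -0.01 and -0.07 in sufficient Lrat-/- labelled arrays and 0.45, 0.08 and 0.16 in wild-type arrays. Wild-type array 1 was highest, and without it the median was -0.25. The summed linear signal was 6825 to 7894 in deficient and 9513 to 11070 in wild-type arrays. How much surface tissue each sample held was not tested.

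Matrix genes were also lower. Of 48 extracellular matrix genes, 43 were lower in deficient arrays (median -0.22), 19 had a p under 0.05, all lower, and none was called. Prelp, a leucine-rich proteoglycan, was at 10.20, 10.18 and 10.18 in deficient arrays, 10.01, 10.28 and 10.20 in sufficient Lrat-/- labelled arrays and 10.53, 10.74 and 10.67 in wild-type arrays (difference -0.46, adjusted p = 0.233). Col14a1, a fibril-associated collagen, differed by -0.45, and the microfibril protein Mfap4 by -0.46. The mean deviation of the 48 genes was -0.03, -0.05 and -0.12 in deficient arrays, -0.14, -0.02 and -0.14 in sufficient Lrat-/- labelled arrays and 0.12, 0.23 and 0.15 in wild-type arrays, so all 3 wild-type arrays lay above the other 6. The sufficient mean lay between the others in 18 of the 48, near the 36.6% of all genes and below the 75.1% of genes with a p under 0.05. Fibroblast markers were lower in 20 of 22 (median -0.16, or -0.12 without deficient array 3, and 6 with a p under 0.05). Their summed linear signal was 27080 to 28540 in deficient and 28720 to 33010 in wild-type arrays. The fibroblast receptor Pdgfra differed by -0.21, with overlap, at 9.18, 9.11 and 8.67 in deficient and 9.16, 9.08 and 9.36 in wild-type arrays.

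**Figure D4:**
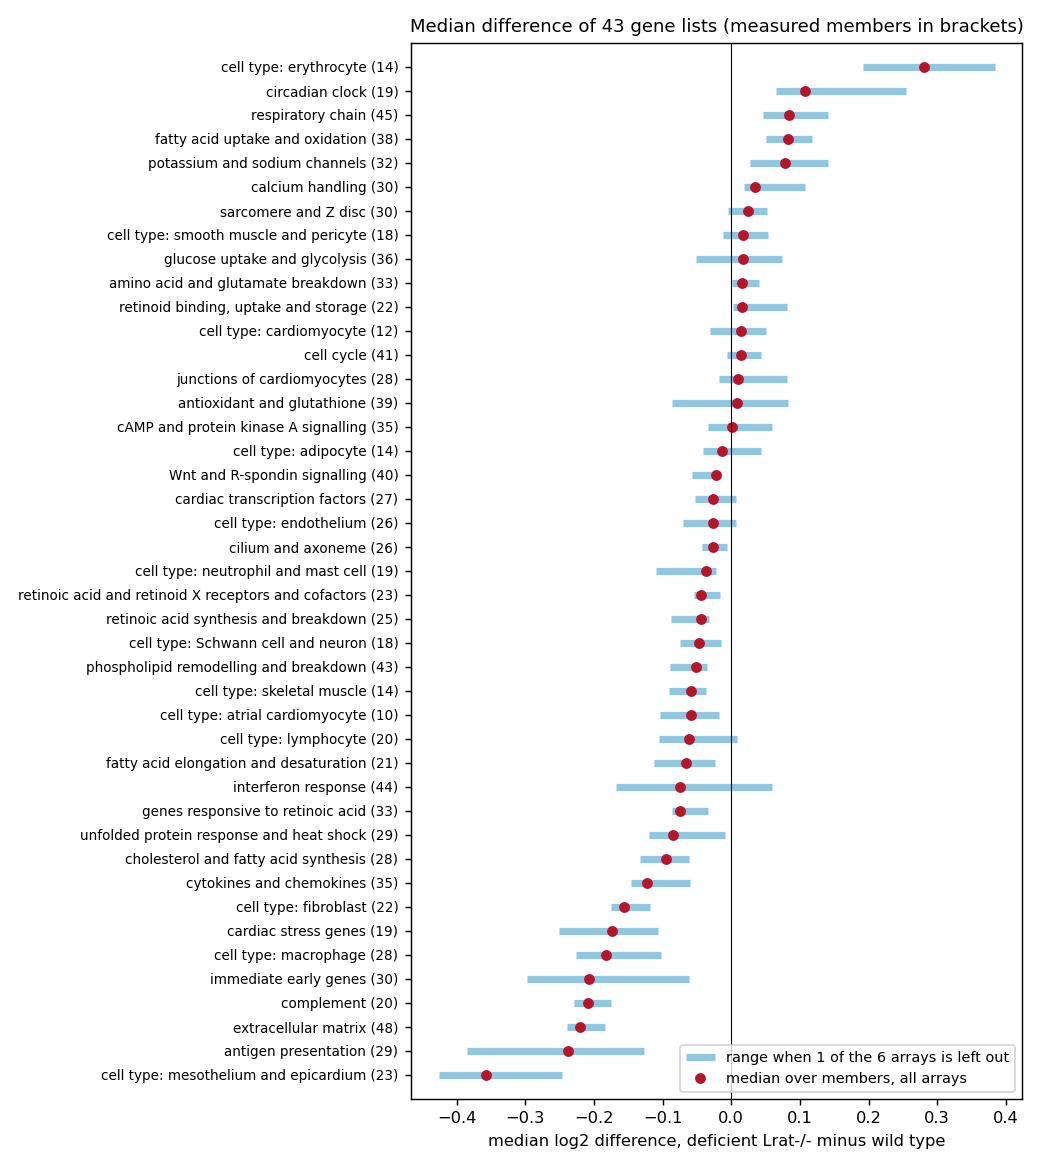
Median log2 difference, deficient minus wild-type arrays (horizontal axis), over the measured members of 43 gene lists (points), with the range when any 1 of the 6 arrays is left out (bars). Markers of mesothelium and epicardium have the lowest median, -0.36, and erythrocyte markers the highest, 0.28.

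Immune and early-response lists rested in part on wild-type array 2. All 29 measured antigen presentation genes were lower in deficient arrays (median -0.24, or -0.13 without that array and -0.39 without wild-type array 1), with mean deviations of -0.02, -0.03 and -0.13 in deficient arrays, -0.17, -0.06 and -0.29 in sufficient Lrat-/- labelled arrays and -0.05, 0.50 and 0.25 in wild-type arrays. Wild-type array 1 was thus at the level of the arrays labelled Lrat-/-. The class I gene H2-Q6 was at 8.95, 8.91 and 8.52 in deficient arrays, 8.42, 8.51 and 7.74 in sufficient Lrat-/- labelled arrays and 8.91, 10.81 and 9.76 in wild-type arrays, with overlap, and near-identical class I copies may share its signal. H2-T24 differed by -0.71 (adjusted p = 0.277). Of 30 immediate early genes, 28 were lower (median -0.21, 6 with a p under 0.05), with mean deviations of -0.14, -0.11 and -0.08 in deficient arrays and -0.02, 0.53 and 0.01 in wild-type arrays. Without wild-type array 2 the median was -0.06. Egr1, an early transcription factor, shows this: it was at 7.96, 7.78 and 7.93 in deficient and 8.09, 10.23 and 8.20 in wild-type arrays.

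The median of 44 interferon response genes was -0.07 with wild-type array 2 and 0.06 without it, or -0.12 without deficient array 1 and -0.17 without wild-type array 1, and its members lay both ways, none called: Mx2 by 0.40, Rsad2 by 0.54, Ifi204 by 0.44 and Gbp6 by -0.65. Complement genes were lower in 17 of 20 (median -0.21), among them C3 (-0.48) and C4b (-0.73), with Cd59a, an inhibitor of the membrane attack complex, at 0.56. Of 35 cytokine and chemokine genes, 26 were lower (median -0.12, or -0.06 without deficient array 3 and -0.06 without wild-type array 2, with 5 lower and 1 higher at a p under 0.05). No gene of these lists was called.

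Respiratory chain and erythrocyte genes were higher, most of all in the arrays numbered 3. Of 45 respiratory chain genes, 37 were higher in deficient arrays (median 0.08, 5 with a p under 0.05), but the median was 0.03 among arrays 1 and 2 and 0.27 between the arrays numbered 3. It was 0.14 without deficient array 1, 0.14 without wild-type array 2 and 0.05 without wild-type array 3. Uqcrb, a subunit of complex III, was at 12.96, 12.98 and 13.27 in deficient and 12.87, 12.56 and 12.55 in wild-type arrays (difference 0.41, adjusted p = 0.502), and Ndufs4, of complex I, differed by 0.56. Erythrocyte markers were higher in 12 of 14 measured (median 0.28, or 0.09 among arrays 1 and 2 and 0.81 between the arrays numbered 3). Their mean deviations were 0.11, -0.03 and 0.32 in deficient arrays and -0.08, -0.05 and -0.46 in wild-type arrays, and the adult beta-globin gene Hbb-bt was at 12.66, 12.65 and 13.22 in deficient and 12.15, 12.85 and 11.60 in wild-type arrays. Wild-type array 3 was low in both lists. Of 19 circadian clock genes, 14 were higher, and the median was 0.22 among arrays 1 and 2 and -0.15 between the arrays numbered 3.

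**Figure D5:**
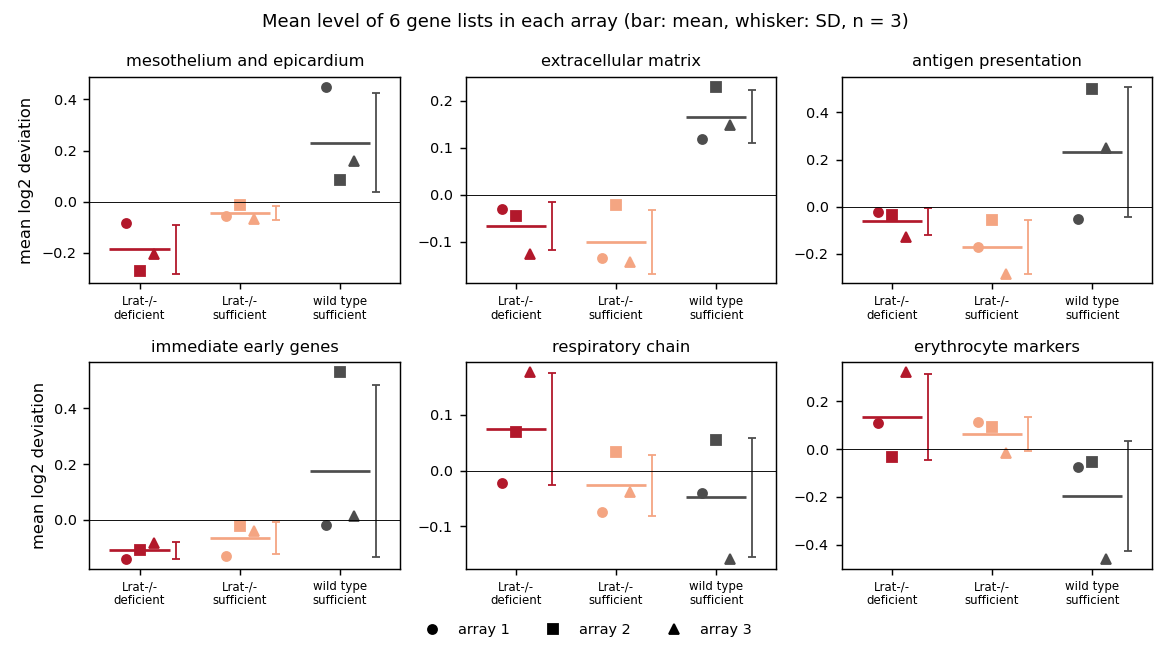
Mean log2 deviation of the members of 6 gene lists from their average over the 9 arrays (vertical axes), by array and group, with the group mean (bar) and SD (whisker, n = 3). All 3 wild-type arrays lie above the others for extracellular matrix, while wild-type array 2 alone is high for immediate early genes.

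Genes that neighbour Lrat on chromosome 3 were examined as well. Of the 100 nearest measured genes, 50 on each side, limma called none and 5 had a p under 0.05, or 5.0%, against 6.09% of all genes: Pdcd10, Fnip2, Etfdh, Rxfp1 and Sfrp2. Rxfp1, a relaxin receptor, had the lowest p and was below background in the arrays compared (4.36, 4.54 and 4.84 in deficient and 5.46, 5.29 and 5.28 in wild-type arrays). Of the 15 called genes, Gdpd3, Plekha7 and Tmc7 lie on chromosome 7, and the rest are spread over 12 others.

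The authors' deposited table compares the same groups by analysis of variance. All 15 genes have the same direction in the authors' deposited table, each with a p under 0.05 there, as have 7.52% of its probe sets. The 15 were selected on the same groups, so this is not an independent check. When the p-values of the authors' deposited table were adjusted over its 35556 probe sets, 9 probe sets passed (0.0253%). Of these, 3 carried a gene name here, and they were among the 15.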

How the data were processed

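RNA from right ventricles was measured on Affymetrix GeneChip WT arrays, 1 array per sample. The authors deposited log2 signals per probe set made with RMA, which corrects background, quantile-normalizes the arrays and summarises each probe set. RMA, R 3.1.2 and the genome build mm8 are named in the submitters' processing notes. RMA's summary by median polish can give arrays the same value, and 2 or more arrays of a group were equal in 12.0% to 14.6% of genes. None of the 15 called genes had equal values among deficient or among wild-type arrays. Among the sufficient Lrat-/- labelled arrays 3 of the 15 (20%) had them: Dglucy, Limch1 and Lgr6. Each of these is a gene with its groups in order, and equal values narrow the middle group. Among graded genes that were not called, Dhrs3, Pi16, Sprr1a and Ifi204 also had equal values, to at least 3 decimals, in 2 sufficient Lrat-/- labelled arrays. The authors also deposited a ratio and a p-value per probe set for this comparison, from an analysis of variance that includes scan date, per the file headers. In a further deposited table, which pairs probe sets with symbols, 9 signal columns match no sample label and were not used.

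Of 35556 probe sets, 6546 were array controls and 25465 had 1 gene symbol, updated through a RefSeq table of GRCm38.p6 (22115 by accession, 1815 by symbol, 625 by synonym, 910 kept as in the file). The brightest probe set over the 9 arrays was kept for each of 22061 genes. Group means were fitted to all 9 arrays with limma 3.58.1 in R 4.3.3, with default empirical Bayes settings (residual degrees of freedom 6, prior 3.34) and Benjamini-Hochberg adjustment, and called genes are those with an adjusted p under 0.05. The fit was tested on simulated data with independent noise in each array. That test does not cover structure shared between arrays of the same number. Background is the mean of 5222 background control probe sets on each array. These controls spread widely, with a 95th percentile of 8.09 to 8.54 over the 9 arrays. A signal called above background can therefore lie within the spread of the controls, and folds given as at least a value refer to the mean only. Scipy 1.17.1 under Python 3.11.15 gave the exact permutation test, and matplotlib 3.10.9 drew the figures. The number of arrays limits the precision.

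After removal of group means, all 9 pairs of arrays with the same number in different groups were positively correlated across genes, with r between 0.14 and 0.39, against -0.37 to 0.22 for other pairs, so the numbers go with a shared structure in the data. The labels do not say what they share.

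Named genes were every called gene; per direction, the 10 next lowest p without overlap and the 10 largest differences with 3 groups in order; up to 4 genes per list by p; the retinoid lists; and Lrat. Some genes that this rule names are not reported here. A few markers, and the promoters shown, were chosen after their values were seen. The 43 lists held 1123 genes, of which 1111 were measured. The genes and lists were chosen with earlier results of these data known. Alternatives covered the arrays in the fit, the replicate block, left-out arrays, empirical Bayes settings, array weights, a filter on dim genes, the probe set per gene and the normalization. Marker sums without Nppa, and folds with signals below background set to it, were added after seeing the data.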

Additional observations from a re-analysis of the deposited data

How the results depend on the processing

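The 15 called genes kept their sign under every alternative run. With the replicate number as a block, 10 genes were called higher and 10 lower, against 9 and 6 without it, and of the 15 Rerg alone lost the call. Array weights gave 16 and 16, with 26 of the called genes having a sufficient mean between the others, against 11, and 8 neighbours of Lrat with a p under 0.05, against 5. A fit to the 6 arrays compared gave 3 and 6, with 7 in between. All named and unnamed probe sets together, an alternative chosen after seeing the data, gave 14 and 7. Without the arrays numbered 3, 0 genes were called higher and 3 lower, with 2 in between, and 1861 genes had an unadjusted p under 0.05 by limma; the Lrat difference was 1.34 (adjusted p = 0.0743). That fit has fewer samples. With 1 of the 6 arrays left out, 2 to 13 genes were called higher (2 without deficient array 2, 13 without wild-type array 3) and 4 to 19 lower (4 without deficient array 1, 19 without wild-type array 3), with 4 to 23 in between, 4 to 8 neighbours of Lrat and a Lrat difference of 1.29 to 1.41. The dim filter, the mean of probe sets, repeated quantile normalization, median centring, and trended and robust settings each left both counts within 1.5 times. For other differences the cause was not tested. Signals near background, such as Gdpd3, Retnla, Elovl7 and Olfr872 in deficient arrays, bound the size of a fold.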

Other observations

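Of 3545 probe sets with no gene name, 7 were called when all 29010 probe sets that are not array controls were fitted together with limma, 6 higher and 1 lower in deficient arrays. They held 4 distinct sets of values. The largest difference was shared by 4 probe sets with identical values, annotated in the files as an envelope transcript of an endogenous virus. They were at 11.43, 11.30 and 11.11 in deficient arrays, 11.28, 11.43 and 11.50 in sufficient Lrat-/- labelled arrays and 5.01, 5.48 and 5.87 in wild-type arrays, at least 49.6-fold higher in deficient arrays (adjusted p = 1.03e-06). All 6 arrays labelled Lrat-/- were alike, and the wild-type arrays were near background. Probe set 10468877, with no annotation, was at 10.86, 10.75 and 10.87 in deficient arrays, 10.94, 10.90 and 11.03 in sufficient Lrat-/- labelled arrays and 5.53, 5.95 and 5.79 in wild-type arrays (adjusted p = 8.79e-08), and probe set 10389717 at 8.97, 8.85 and 8.87 in deficient and 7.20, 7.28 and 6.23 in wild-type arrays. Probe set 10489782, annotated as a pseudogene transcript, was lower, at 5.87, 5.71 and 5.19 in deficient arrays and 7.59, 8.48 and 8.58 in wild-type arrays (difference -2.62, adjusted p = 0.00872). In each of these the sufficient Lrat-/- labelled arrays lay with the deficient ones.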
